A study of Homo sapiens with 6 samples.

Results

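The cytosolic ribosome is built from ribosomal RNA and mostly single copies of its many ribosomal proteins, and the genes for these proteins were examined in NB4 cells with and without targeting of ARID1A. Members were the protein-coding genes whose symbol is RPL or RPS and a number, alone or with the suffix A, X, L or AL. The stalk genes RPLP0, RPLP1 and RPLP2 and RPSA were included, and the RPS6K kinases and the Y-linked copy were left out. The rule found 82 genes among 52992, of which 50 encode proteins of the large subunit and 32 of the small subunit. All 82 were in the tables, and 81 passed the filter on low counts. RPL10L, an autosomal copy of RPL10 known from testis, was listed at 0 in all 6 samples.

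NB4 is an established acute promyelocytic leukemia cell line. All cells carried Cas9 with an mCherry marker and a GFP-marked guide RNA (sgRNA) under doxycycline control, and sorted populations rather than single clones were used. The guide in the LacZ group (genotype WT) was directed at the bacterial lacZ gene, and the guides in the sg1 and sg5 groups (genotype ARID1A-deficient) at ARID1A, a core member of SWI/SNF chromatin remodelers. There were 3 groups with 2 replicates each. Doxycycline was given at 1 µg/ml for 7 days to controls as well as targeted cells, and RNA was taken after 2 further days without it. Whether the replicates are separate cultures is not given in the sources used here, so p-values measure only the spread between these libraries.

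Ribosomal protein genes are among the most actively expressed genes of growing cells, and their products are needed in nearly equal amounts, and unassembled ribosomal proteins are degraded. Their mRNAs share a 5′ terminal oligopyrimidine (TOP) tract, a C at the first base followed by a run of C and T, through which growth signalling by mTOR sets their translation. Inherited loss of 1 copy of several of them causes Diamond-Blackfan anemia, and loss of RPS14 contributes to the anemia of the 5q- syndrome.

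Total estimated counts per library ranged from 46131178 to 54843745, and the ribosomal protein genes took 6.56% to 7.77% of them. ARID1A mRNA was 155 and 191 CPM (counts scaled to a common library size) in LacZ, 211 and 191 with sg1, and 124 and 145 with sg5. The sg1 libraries were therefore not below LacZ, and ARID1A was called in neither contrast (edgeR adjusted p = 0.993 in sg1 and 0.661 in sg5). An mRNA level does not read a frameshift, so these values do not check the protein. The 8 promyelocyte markers summed to 8337 and 9214 TPM in LacZ and 6967 to 8235 TPM in the targeted libraries, all below LacZ. MPO made up most of the sum (5991 to 7769 TPM), ELANE was at most 0.29 TPM, and the part of this difference in the results was not tested. The sums were at most 0.248 TPM for 6 erythroid markers, 19.5 for T cell markers and 52.9 for B cell markers. On the first principal component, which held 34.4% of the variance, sg1 replicate 1 (34.3) and sg5 replicate 2 (46.8) stood apart from the other libraries (-30.3 to -11.3). The main results are also given without these 2 libraries.

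The start sites of the genes are shown first, because the TOP tract is the sequence that the members share. RefSeq start-site windows on GRCh38.p14 were matched by symbol for 65 of the 82 genes. A C at the annotated start followed by at least 4 further C or T bases was present at 1 or more starts of 46 of these 65 genes (70.8%), against 5.14% of 27305 genes in the table. The share was 70% among large subunit genes and 72% among small subunit genes. The words CTTTC or CTTTT, searched within 15 bases on either side of the start, gave 70.8% of members and 9.71% of all genes on the gene's strand, and 3.08% and 6.83% on the other strand. The words overlap the tract and are not a separate feature. Windows of 12 bases before and 18 bases from the start follow for the most abundant member, for 4 genes with high (RPL24, RPS25) or low (RPL13, RPL12) values in sg5 described below, and for 3 pairs of paralogs. For a gene with several annotated starts, the start with the longest run was taken. Capitals mark the pyrimidine run from a C at the first transcribed base, and a window without capitals has no C there.
RPL18: ccagcccgttctCTCTTTCCggacctggcc
RPL24: ccatgattctctCTTTCTTTTCgccatctt
RPS25: gagcagcgcttcCTTTTTgtccgacatctt
RPL13: cggggccgcttcCTTTCCgctcggctgttt
RPL12: cgcgatttccggCCTCTCggctttcggctc
RPL36A: gcctcgcggtttCTTTCTTTCCgcgccgat
RPL36AL: tttcttccctttCCTgttaggcgagagctg
RPS27: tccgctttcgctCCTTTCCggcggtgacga
RPS27L: ttgatgccgagcgcagatcgcttgcagctt
RPL10: gcggaggagcgcCTCTTTCCCTTCggtgtg
RPL10L: gcgtagttaagagagcgcattttgacttcg

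These windows lie at chr19:48619161-48619190 (RPL18, minus strand), chr3:101686701-101686730 (RPL24, minus), chr11:119018326-119018355 (RPS25, minus), chr16:89560670-89560699 (RPL13, plus) and chr9:127451389-127451418 (RPL12, minus). The paralog windows lie at chrX:101390999-101391028 (RPL36A, plus), chr14:49620609-49620638 (RPL36AL, minus), chr1:153990750-153990779 (RPS27, plus), chr15:63157460-63157489 (RPS27L, minus), chrX:154398365-154398394 (RPL10, plus) and chr14:46651764-46651793 (RPL10L, minus). In each pair the gene with the higher TPM (given next) has the longer run: 10 bases in RPL36A against 3 in RPL36AL, 7 in RPS27 against none in RPS27L, and 12 in RPL10 against none in RPL10L. A match is a description of the letters at an annotated start, and the start used in NB4 cells was not measured here.

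The first question was how strongly each gene is expressed, for which TPM, an abundance per transcript length, was compared between genes. In LacZ, 72 of the 82 genes had a mean above 1000 TPM and only 5 were below 100 TPM, with a median of 1862 TPM. RPL18, a large subunit protein, was the highest at 12870 and 12300 TPM in LacZ, 13140 and 12590 with sg1, and 13830 and 12030 with sg5. Its groups overlapped, and its LacZ mean of 12590 TPM ± 402 (SD, n = 2) was more than that of RPL13 (5168 TPM ± 48.1) and of RPL4 (4134 TPM ± 257), the next of the genes named for the large subunit. RPL3, which lies near the peptidyl transferase center, had 2388 TPM ± 96.7 in LacZ.

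In the small subunit the highest LacZ means were those of RPS24 (4442 TPM ± 373), RPS3 (4265 TPM ± 173) and RPS28 (4206 TPM ± 210), which differed by less than their spread. RPS24 is one of the Diamond-Blackfan genes, and RPS3 lines the mRNA entry channel. RPS15, at 1089 TPM ± 16.3, was the lowest of the small subunit genes apart from the paralog RPS27L and RPS26. The P-stalk, which recruits the GTPase translation factors, is formed by RPLP0 with RPLP1 and RPLP2. Their LacZ means were 3642 TPM ± 252, 3299 TPM ± 66.7 and 1406 TPM ± 38.2. RPSA, which is also known as the laminin receptor precursor, had 2082 TPM ± 112.

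The paralogs with an L suffix were far lower than their partners. RPL3L, known as the striated muscle form of RPL3, had 21 estimated counts in each LacZ library, 15 in each sg1 library and 18 and 17 in sg5, and its mean in LacZ was 0.255 TPM ± 0.00281. RPL39L, known from male germ cells, had 36.4 and 34.7 TPM in LacZ, 37.5 and 30.9 with sg1, and 35.6 and 32.3 with sg5, and the groups overlapped. RPL39 itself had 2750 TPM ± 282 in LacZ. RPS27L, a p53-inducible relative of RPS27, had 49.5 and 55.1 TPM in LacZ against 2480 and 2172 TPM for RPS27. RPL36AL had 244 and 207 TPM in LacZ against 1760 and 1747 TPM for RPL36A. Between groups, the log2 fold changes of RPL3L were -0.36 ± 0.43 (SE) in sg1 and -0.18 ± 0.42 in sg5, those of RPL39L -0.01 ± 0.15 in both, and those of the partners RPL3, RPL10 and RPL39 lay between 0.02 and 0.18.

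**Figure D1:**
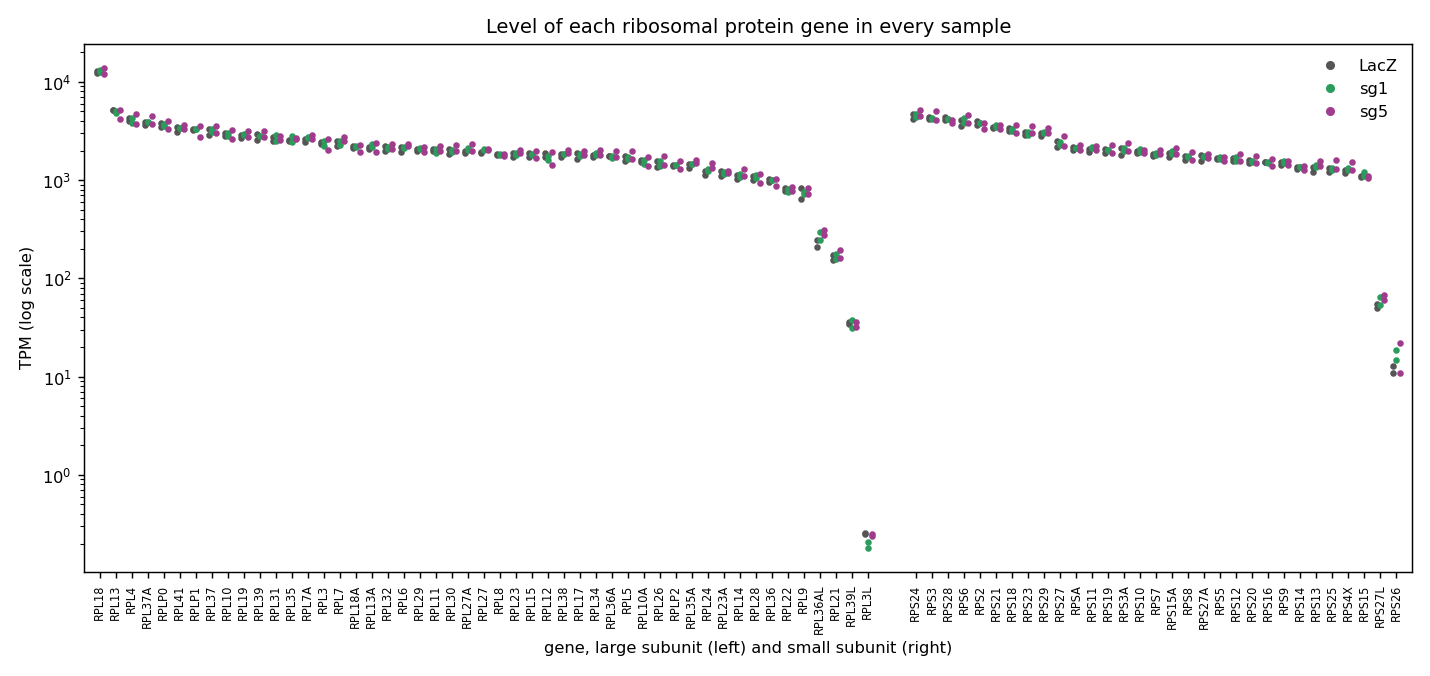
TPM on a log scale (y axis) of 80 of the 81 ribosomal protein genes detected, each in 6 samples coloured by group, with large subunit genes on the left and small subunit genes on the right, in falling order of the LacZ mean (x axis). Most LacZ means lie between 1000 and 5168 TPM, and RPL18 lies above them at 12590 TPM. The paralogs RPL36AL, RPL39L, RPL3L and RPS27L with RPL21 and RPS26 are the lowest of the genes drawn.

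Several levels are uncertain because the genes have near-identical processed copies among which the authors' counting splits reads. The annotation holds 1124 pseudogenes named for members, and those matched to the annotation took 1.06% to 1.13% of the counts of members and matched pseudogenes. For 4 genes the copies held over 5% of the joint counts on average: RPL21 (61.2%), RPL23A (44%), RPS2 (11.4%) and RPL22 (6%). RPS26, a Diamond-Blackfan gene, was listed at only 342 to 726 counts, or 11.9 TPM ± 1.4 in LacZ, over 3 transcripts. Its 30 pseudogenes held 2.35% of the joint counts, and why the gene was so low was not tested. RPL9 had 10930 to 13892 counts, while a transcript named for the copy RPL9P9 and another transcript of the same length of 673 bases, neither of which matched the annotation, had the same 30430 to 35906 counts each. These transcripts are outside the shares above, and each held more counts than RPL9 itself. The read-through gene RPS10-NUDT3, which shares exons with RPS10, had 2179 to 3905 counts.

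Of the members' counts, 88.2% to 88.8% lay on transcripts typed as protein coding and 6.41% to 6.93% on transcripts typed as retained intron. The coding share averaged over 90% in 62 genes and under 70% in 8. RPS28 had the lowest (11.4% to 20.4%), since most of its counts lay on a transcript of 334 bases that the annotation types as retained intron, and RPL4 (39% to 41.2%) and RPL37 (42.6% to 51.1%) followed. Nonsense-mediated decay transcripts, a class through which several ribosomal protein genes are known to limit their own expression, held 1.68% and 1.79% of the counts in LacZ, 1.52% and 1.65% with sg1, and 1.51% and 1.51% with sg5. The 4 ARID1A-deficient libraries were all below both LacZ libraries in this share, and no test was made. They were all above both LacZ libraries in the protein-coding share (88.301% to 88.811%, against 88.283% and 88.232%). The same held for the non-stop decay share (0.883% to 1.153%, against 0.881% and 0.846%). Shares of a whole depend on each other, so these differences are not separate results.

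The next comparison asked whether the ribosomal protein genes as a whole took another share of the mRNA when ARID1A was targeted. They held 18.3% and 17.04% of all TPM in LacZ, 17.8% and 18.2% with sg1, and 19.7% and 17.1% with sg5. The groups overlapped, and the highest value was that of sg5 replicate 1. The means differed from LacZ by 0.328 percentage points in sg1 and 0.715 in sg5, against SDs within groups of 0.669 and 1.49. The lower library of sg1 and of sg5 was in each case the one that stood apart, and without both, sg1 had 18.2% and sg5 19.7%. TPM and CPM are shares of a library, so more RNA per cell from these genes and less from all others cannot be told apart, and neither can less RNA per cell and fewer cells.

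The balance of the subunits was nearly the same in every library. Summed large subunit TPM divided by summed small subunit TPM was 1.55 in both LacZ libraries (1.5472 and 1.5459), 1.5365 and 1.5418 with sg1, and 1.5259 and 1.5319 with sg5. All 4 ARID1A-deficient libraries were below both LacZ libraries. The differences were small, at -0.0074 in sg1 and -0.0176 in sg5, with SDs within groups of 0.00273 and 0.00307. With 2 libraries a group an exact permutation test cannot go below p = 0.333 (two-sided), so none was made. The order was the same with estimated counts in place of TPM, where LacZ had 1.6895 and 1.6959, sg1 1.6705 and 1.6776, and sg5 1.6526 and 1.6517. Without the 5 most abundant genes of each subunit the groups overlapped: LacZ had 1.6105 and 1.5857, sg1 1.5745 and 1.6099, and sg5 1.5713 and 1.5898.

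**Figure D2:**
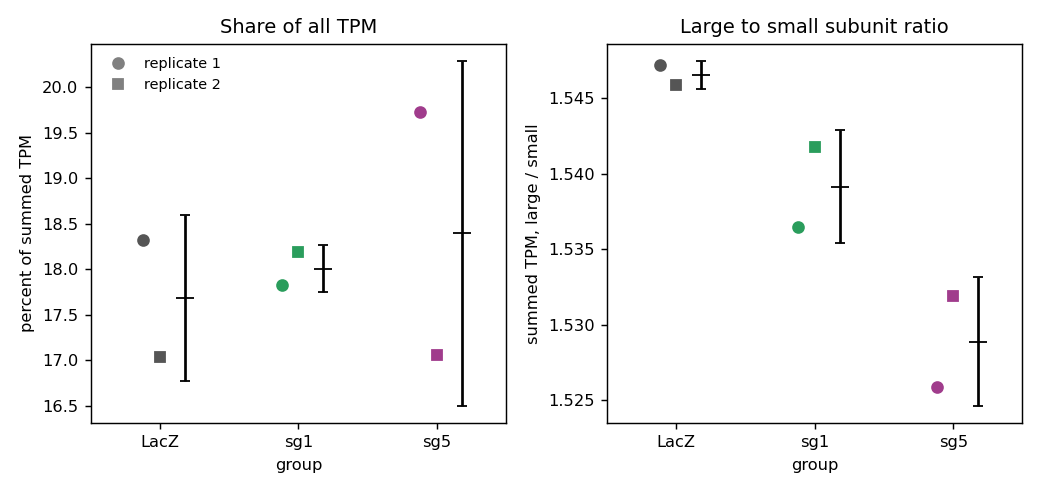
Left, percent of summed TPM held by the 82 ribosomal protein genes (y axis), and right, summed large over summed small subunit TPM (y axis), by group (x axis), with neither y axis starting at 0; circles are replicate 1, squares replicate 2, and the bars give mean ± SD (n = 2). The shares overlap between 17.04% and 19.7%, whereas the subunit ratio lies between 1.5259 and 1.5418 in the ARID1A-deficient libraries and at 1.5459 and 1.5472 in LacZ.

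Gene by gene, TMM-scaled counts were tested with the edgeR quasi-likelihood test over 18514 genes, at a false discovery rate (FDR) of 0.1. No ribosomal protein gene was called in sg1 against LacZ, where 0.0378% of all genes were called. None was called in sg5 against LacZ (0.0972% of all genes), in both ARID1A-deficient groups joined against LacZ (0.167%), or between sg1 and sg5 (0.0054%). DESeq2 called none either. At an unadjusted p below 0.05, 0 of the 81 genes passed in sg1 (background 4.15% of all genes) and 2 in sg5 (7.47%), RPL36AL and RPL24. In the joined contrast 1 passed (7.21%), RPL36AL, and between the guides 0 did (1.38%), whereas DESeq2 gave 0, 3, 2 and 0 in the same order. The median SE of a member's log2 fold change was 0.12, so shifts of about this size were not detectable gene by gene. Larger values went uncalled too, such as 0.43 ± 0.15 (SE) for RPL36AL and 0.30 ± 0.12 for RPL24 in sg5.

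Nearly all members nonetheless lay slightly above LacZ. Of 81 genes, 75 had a positive log2 fold change in sg1 and 72 in sg5, and the medians were 0.08 and 0.14, against 0.00 and -0.01 over all genes tested. Scaling by total counts alone left 63 and 66 genes above 0 with medians of 0.04 and 0.09, where the median of all genes was -0.04 and -0.05. On the log2(TPM + 1) scale 64 and 63 genes were above 0 with medians of 0.03 and 0.07, where the median of all genes was -0.03 and -0.04. The interquartile range was 0.05 to 0.11 in sg1 and 0.06 to 0.18 in sg5. The comparisons with sg1 and sg5 share the LacZ libraries, so the one does not repeat the other. Large and small subunit genes had the same median in sg1 (0.08) and nearly the same in sg5 (0.13 and 0.14).

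Per library, the median log2 ratio of the members to the LacZ mean was 0.04 and -0.04 in the LacZ replicates themselves, 0.08 and 0.08 with sg1, and 0.19 and 0.06 with sg5. The gap between the LacZ replicates was thus as large as the median difference in sg1. Of the 81 genes, 54 were lowest in LacZ replicate 2, where 17.6% of all genes were lowest, and 61 were highest in sg5 replicate 1, where 16.2% of all genes were highest. Without LacZ replicate 2 the sg1 median was 0.03, with 60 genes above 0, and without sg5 replicate 1 the sg5 median was 0.08, with 58 above 0. Without sg1 replicate 1 and sg5 replicate 2, the medians were 0.08 and 0.19. With total counts as the scale, sg1 replicate 1 (0.01) and sg5 replicate 2 (-0.02) lay between the LacZ replicates (0.05 and -0.06).

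**Figure D3:**
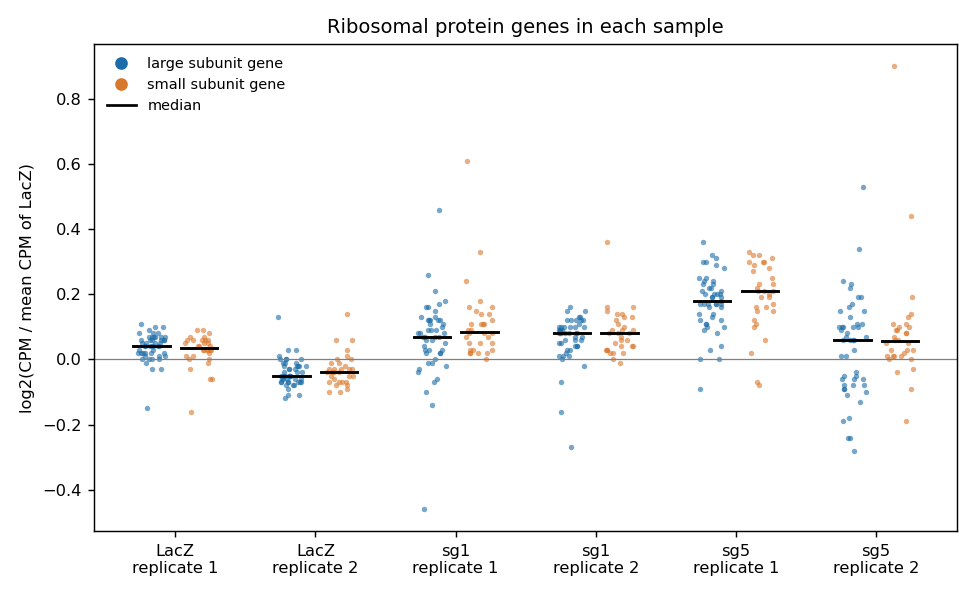
Log2 ratio of each gene's TMM-scaled CPM to its LacZ mean (y axis) in each of the 6 libraries (x axis), for 49 large and 32 small subunit genes, with black bars at the medians. Most points of sg5 replicate 1 lie above 0 with a median of 0.19, while the medians of the other targeted libraries (0.06 to 0.08) are close to that of LacZ replicate 1 (0.04).

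Both sg1 libraries were above both LacZ libraries for 41 of 81 genes (50.6%, against 16.7% of all genes) and below both for 1 (1.23%, against 17.4%). For sg5 the counts were 38 above (46.9%, against 20.2%) and 2 below (2.47%, against 21.9%). All 4 targeted libraries were above LacZ for 26 genes (32.1%, against 9.72%) and below for 1 (1.23%, against 10.4%). The shares above LacZ rested on the scale. With total counts, 11 genes were above in sg1 (13.6%, against 12.6% of all genes), 12 in sg5 (14.8%, against 16.1%) and 4 in all targeted libraries (4.94%, against 6.81%). With TPM the counts were 13 (16.0%, against 12.9%), 13 (16.0%, against 14.9%) and 6 (7.41%, against 6.49%). On both of these scales the shares above LacZ were thus near the background, whereas the shares below LacZ stayed under it. With total counts, 2.47% of members were below in sg1 (against 20.9%), 3.7% in sg5 (against 25.7%) and 2.47% in all targeted libraries (against 12.7%). With TPM these shares were 2.47% (against 20.9%), 1.23% (against 26.3%) and 1.23% (against 12.4%). Members shift together within a library, so they are not independent of each other.

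Among the large subunit genes, RPL36AL, a second gene for the eL42 protein that RPL36A also encodes, had the highest log2 fold change in both sg1 and sg5. It had 110 and 94.5 CPM in LacZ, 141 and 114 with sg1, and 128 and 148 with sg5. All 4 targeted libraries were above both LacZ libraries, with log2 fold changes of 0.32 ± 0.15 (SE) in sg1 and 0.43 ± 0.15 in sg5, and edgeR adjusted p was 0.609 in sg5. RPL36A had 398 and 398 CPM in LacZ, 395 and 418 with sg1, and 466 and 416 with sg5, and its log2 fold changes were 0.03 ± 0.12 and 0.15 ± 0.12. The difference between the paralogs was not tested.

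RPL24, which forms a bridge between the subunits, had 440 and 406 CPM in LacZ, 479 and 455 with sg1, and 543 and 498 with sg5. The groups did not overlap, and the log2 fold change was 0.14 ± 0.12 in sg1 and 0.30 ± 0.12 in sg5 (edgeR adjusted p = 0.661 in sg5). At the other end, RPL13 had 1866 and 1886 CPM in LacZ, 1915 and 1783 with sg1, and 1876 and 1594 with sg5, for a log2 fold change of -0.11 ± 0.13 in sg5. RPL12, which sits at the base of the stalk, had 699 and 641 CPM in LacZ, 626 and 679 with sg1, and 737 and 566 with sg5. Both genes overlapped between groups, and sg5 replicate 2 was their lowest library. RPL22 (-0.04 ± 0.14 in sg1) and RPL4 (-0.01 ± 0.14 in sg1) were also among the lowest of the sg1 order.

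The stalk genes did not differ beyond their spread. RPLP0 had 3088 and 2838 CPM in LacZ, 2999 and 3053 with sg1, and 3317 and 2805 with sg5. RPLP1 had log2 fold changes of 0.02 ± 0.13 in sg1 and -0.05 ± 0.13 in sg5, and RPLP2 of 0.05 ± 0.12 and -0.02 ± 0.12. RPL5 and RPL11, which bind MDM2 together with 5S ribosomal RNA when assembly fails, had 0.04 ± 0.13 and 0.03 ± 0.12 in sg1, and 0.16 ± 0.13 and 0.12 ± 0.12 in sg5.

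In the small subunit, RPS26 had the highest log2 fold changes of all members, 0.49 ± 0.30 in both sg1 and sg5. It had 6.91 and 8.53 CPM in LacZ, 11.8 and 9.9 with sg1, and 7.29 and 14.4 with sg5. Its sg5 replicates differed from each other more than the group means did, and the sg5 group overlapped LacZ. Both values of sg1 were above LacZ. RPS27L had 21.9 and 23.8 CPM in LacZ, 28.7 and 23.2 with sg1, and 26.9 and 30.9 with sg5, with log2 fold changes of 0.18 ± 0.15 and 0.34 ± 0.15, while RPS27 had 0.08 ± 0.14 and 0.17 ± 0.14. The sg1 values of RPS27L overlapped LacZ and the sg5 values did not.

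RPS13 had 497 and 448 CPM in LacZ, 535 and 518 with sg1, and 584 and 539 with sg5, so that all targeted libraries were above LacZ, and its log2 fold changes were 0.16 ± 0.12 and 0.25 ± 0.12. RPS15 had its largest difference in sg1 (0.15 ± 0.12), where replicate 1 had 433 CPM and replicate 2 had 383, against 361 and 374 in LacZ. RPS2, whose protein lies at the mRNA entry, had -0.08 ± 0.13 in sg5, and RPS28 also had -0.08 ± 0.11. RPS28 had 667 and 662 CPM in LacZ, 676 and 673 with sg1, and 634 and 625 with sg5, which puts both sg1 libraries above and both sg5 libraries below LacZ. The contrast of sg1 with sg5 gave 0.10 ± 0.11 for this gene (edgeR adjusted p = 1.0).

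Apart from RPS26 with 0.49 ± 0.30 in both contrasts, the named genes of Diamond-Blackfan anemia and the 5q- syndrome had log2 fold changes between 0.03 and 0.21. RPS19, the most often mutated, had 536 and 509 CPM in LacZ, 554 and 537 with sg1, and 587 and 527 with sg5, and its log2 fold changes were 0.06 ± 0.12 and 0.09 ± 0.12. RPS14 had 0.08 ± 0.11 in sg1 and 0.10 ± 0.11 in sg5. RPS24, RPS10 and RPS7 had 0.07, 0.10 and 0.08 in sg1, and 0.18, 0.08 and 0.16 in sg5, with SEs of 0.12 or 0.13. RPL35A had 0.10 ± 0.11 and 0.21 ± 0.11. RPSA had 0.06 ± 0.12 and 0.11 ± 0.12. None of them reached an unadjusted p of 0.05.

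**Figure D4:**
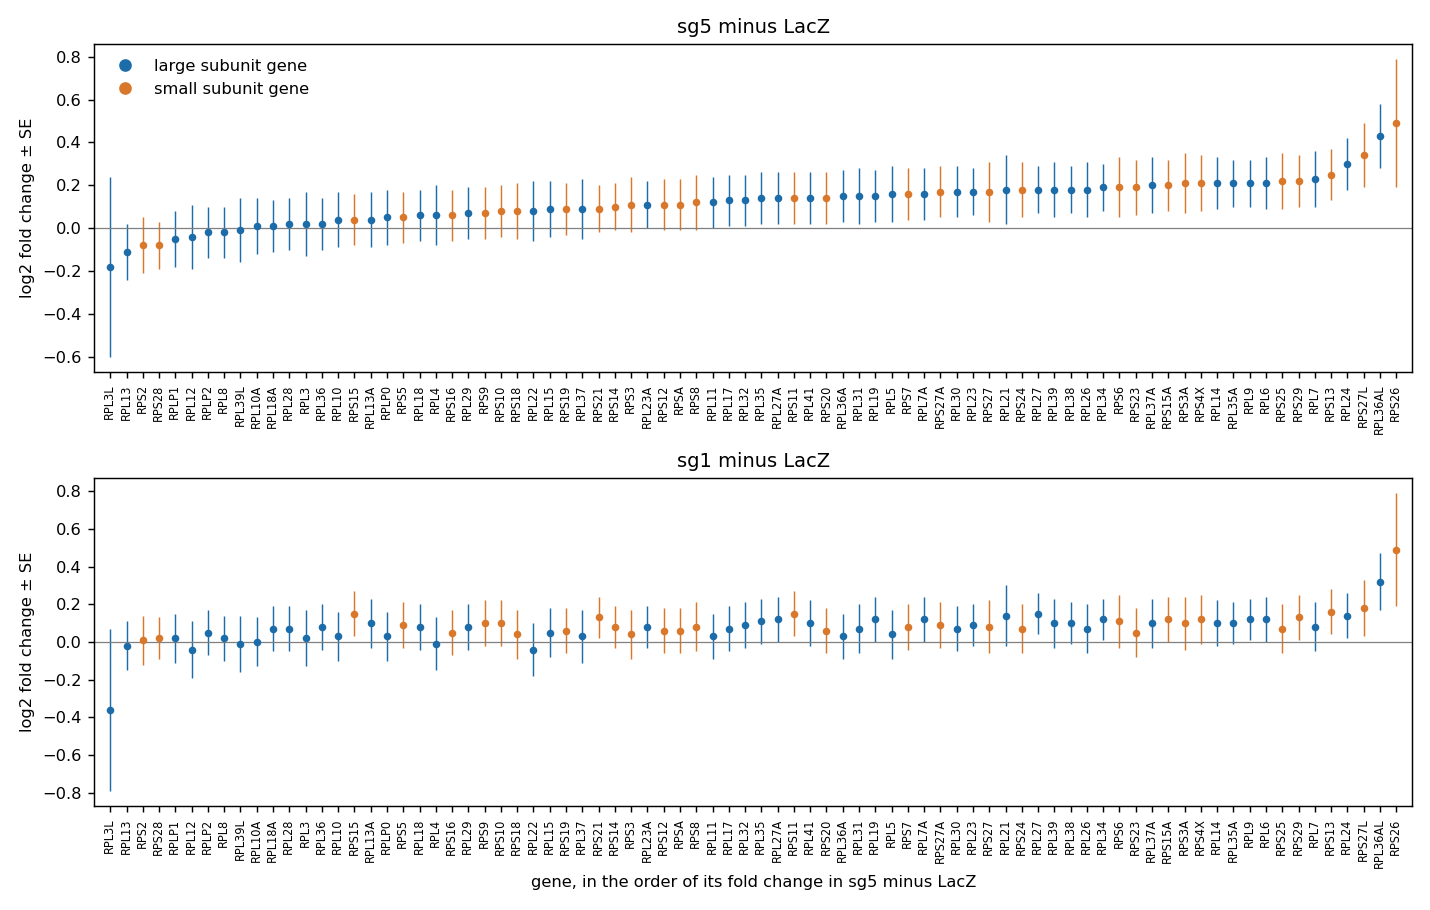
Log2 fold change ± SE (y axis) of 80 of the 81 genes in sg5 minus LacZ (top) and sg1 minus LacZ (bottom), with genes in the order of the sg5 value (x axis) and coloured by subunit. In sg5 the values climb from -0.18 for RPL3L to 0.49 for RPS26 with a median SE of 0.12, and in sg1 the interquartile range is 0.05 to 0.11.

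Leaving out the 2 libraries that stood apart changed the sg5 calls. The fit then holds 1 sg1 and 1 sg5 library, each assumed to vary as the LacZ pair does. In sg5 against LacZ 3 of 81 members were called (3.7%), which is near the 4.09% of 19255 genes called. None was called in sg1 or in the joined contrast, where 2.2% and 4.2% of all genes were. The 3 were RPL24 with a log2 fold change of 0.36 ± 0.11 (edgeR adjusted p = 0.04), RPS25 with 0.33 ± 0.11 (adjusted p = 0.0778) and RPL36AL with 0.32 ± 0.11 (adjusted p = 0.083). RPS25, a small subunit protein used by several viral internal ribosome entry sites, was named here only after this value was seen. It had 687 and 634 CPM in LacZ, 685 and 698 with sg1, and 833 and 707 with sg5.

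The order of the sg5 values followed the base composition of the genes. The G + C content of each gene's most abundant transcript, read from GENCODE 29 (64 of 79 had the length given in the tables), ranged from 37.9% to 63.1% over the 79 members above 10 CPM in every library. Across these genes it correlated with the sg5 log2 fold change at Pearson's r = -0.73 and Spearman's rho = -0.76, and with the sg1 value at r = -0.32 and rho = -0.26. The median sg5 value was 0.06 in the 40 genes richer in G + C and 0.18 in the 39 others. A relation of the same sign was present between the LacZ replicates, where the log2 difference of replicate 1 from replicate 2 gave r = -0.46 and rho = -0.63. It was not present between the sg1 replicates (r = 0.18, rho = 0.31) or the sg5 replicates (r = 0.21, rho = 0.12). Without the 2 libraries that stood apart, r was -0.64 for sg5 and -0.48 for sg1. Over 8624 genes above the same level, r was -0.43 for sg5, -0.16 for sg1 and -0.41, 0.02 and 0.06 for the LacZ, sg1 and sg5 replicates. These are correlations across genes that share libraries, given as a description, and the part of base composition in the members' differences was not tested.

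**Figure D5:**
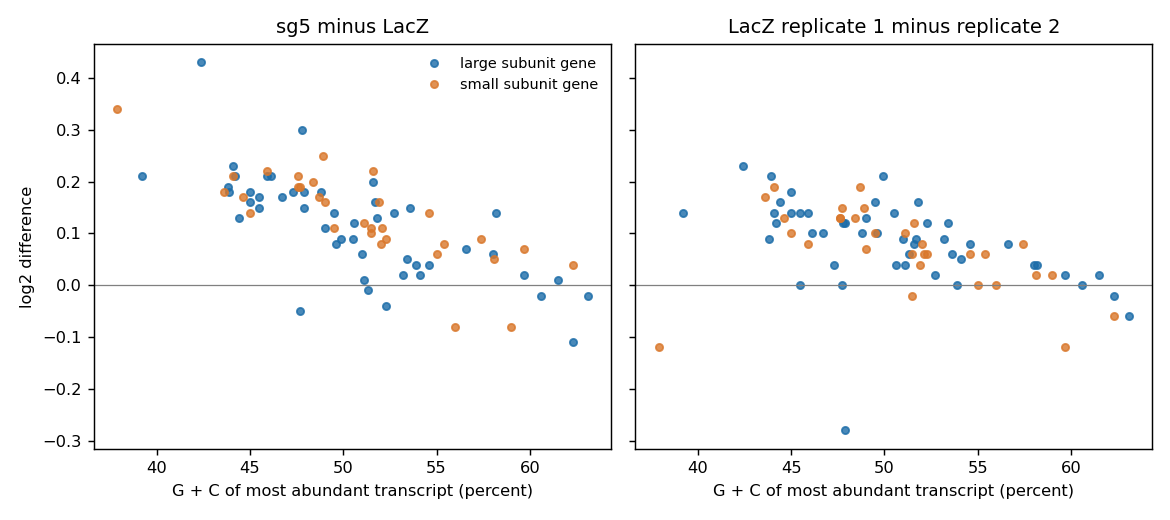
G + C content of the most abundant transcript (x axis, percent) against the log2 difference (y axis) of sg5 minus LacZ (left) and of LacZ replicate 1 minus LacZ replicate 2 (right), for 79 ribosomal protein genes coloured by subunit. Both panels slope down, with r = -0.73 on the left and -0.46 on the right.

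Genes with and without the TOP tract, read at the annotated start with the longest run, overlapped. The 46 tested genes with a tract of at least 5 bases had medians of 0.08 (sg1) and 0.13 (sg5) on the log2 scale, and the 18 with a shorter one or none had 0.12 and 0.16. In sg5 the tract genes spanned -0.11 to 0.30 and the others -0.08 to 0.49. The 3 highest values were those of RPS26 and RPS27L, without a C at the start, and RPL36AL, with a run of 3 bases, while RPL24 and RPL13 at 0.30 and -0.11 have the tract.

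Ribosomal proteins outside the naming rule and the machinery around them were counted from lists. None of the 6 further ribosomal protein genes was called, where 0.0378% of all genes were in sg1, 0.0972% in sg5 and 0.167% in both joined. RPL22L1, the paralog of RPL22, had 20.8 and 20.1 CPM in LacZ, 28.6 and 25.1 with sg1, and 27.4 and 27.0 with sg5, so that all targeted libraries were above both LacZ libraries. Its log2 fold changes were 0.39 ± 0.13 and 0.42 ± 0.13, with edgeR adjusted p of 0.921 and 0.539. Without the 2 libraries that stood apart, which leaves 1 library per guide, RPL22L1 had 0.43 ± 0.14 in sg5 and 0.36 ± 0.11 in the joined contrast. RPL22 itself had -0.04 ± 0.14 and 0.08 ± 0.14, and the difference between these paralogs was not tested either. FAU, which encodes a ribosomal protein fused to a ubiquitin-like protein, had 0.14 ± 0.13 in both sg1 and sg5. RACK1, a scaffold on the small subunit head, had 0.00 ± 0.13 in sg1 and -0.01 ± 0.13 in sg5. RPL26L1 had 0.13 ± 0.16 and 0.22 ± 0.16, and RPL7L1 had 0.04 ± 0.12 and 0.12 ± 0.12.

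Of 30 translation factor genes, 48 tested genes of ribosome assembly and ribosomal RNA synthesis, and 16 tested regulators of ribosomal protein mRNAs, none was called in sg1, sg5 or both joined, and none reached an unadjusted p of 0.05 in those contrasts. Over all genes, 0.0378%, 0.0972% and 0.167% were called in these contrasts, and 4.15%, 7.47% and 7.21% had an unadjusted edgeR p below 0.05. In this order of lists, the median log2 fold changes were 0.03, 0.04 and 0.06 (sg1) and 0.07, 0.08 and 0.00 (sg5). Of the 48 assembly genes, 15 were above LacZ in both sg5 libraries and 2 below, where 20.2% and 21.9% of all genes were, and in sg1 3 were above and 3 below, where 16.7% and 17.4% were. In all 4 targeted libraries 3 were above and 1 below, against 9.72% and 10.4% of all genes. Per library, the median log2 ratio to LacZ of the assembly genes was highest in sg5 replicate 2 (0.16) and sg1 replicate 1 (0.10) and was -0.03 in sg1 replicate 2 and 0.01 in sg5 replicate 1. The 2 high libraries are those that stood apart, and without them the assembly medians were -0.03 in sg1 and 0.01 in sg5, with 5 genes above LacZ and 23 below in sg1 and 20 above and 14 below in sg5. Over all genes, 35.1% were then above and 31.6% below in sg1, and 36.7% and 36.8% in sg5. Without those 2 libraries TAF1B, a factor of RNA polymerase I, had a log2 fold change of 0.40 ± 0.14 in sg5, and it was named after this value was seen. The ribosomal protein genes were highest in another library, sg5 replicate 1 (median 0.19). The translation factor genes were highest there too, with a median of 0.13 against -0.04 to 0.04 in the other libraries. A high median in sg5 replicate 1 was therefore not particular to the ribosomal protein genes.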

How the data were processed

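The authors quantified RNA-seq reads per transcript with kallisto against a human set they label hg19. The study gives a kallisto version and a transcript release only for mouse libraries, and those of these human libraries are not given in the sources used here. The deposited files hold estimated counts and TPM per transcript. Transcripts were matched by identifier to GENCODE 29 (GRCh38, 181857 of 196354), which carried 95.44% to 95.53% of the counts, summed per gene and rounded.

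edgeR 4.0.16 (R 4.3.3) was run with TMM factors, a minimum count of 10, robust quasi-likelihood F-tests and all 6 samples in 1 model with group as the only term, and Benjamini-Hochberg adjustment over 18514 genes. SEs were derived from the F statistic. The study used DESeq2, run here (1.42.0) as an alternative. The fitting functions were tested on simulated data. Python 3.11.15 was used for sums, base composition and plots. RPL3L rested on 15 to 21 counts a library, which limits its precision.

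The members and lists were chosen with earlier results of these data known. The named genes were called members, the 5 highest and 5 lowest log2 fold changes in sg1 and in sg5 among members with a mean of at least 50 counts, 5 paralog pairs, the 3 highest and 3 lowest LacZ TPM per subunit, the stalk genes and RPSA, 10 disease genes, and all further ribosomal protein genes of a list. Values of 2 genes that the rule names are not reported here. RPS25, RPL21, RPL23A, RPL37, RPL9 and TAF1B were named after their values were seen.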

Additional observations from a re-analysis of the deposited data

Results flagged for a closer look

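Among the 4 ARID1A-deficient libraries, 1 library was far from the other 3 in log2 CPM for 3 of 36 measures examined by Dixon's ratio, the gap to the nearest library over the whole range. RPL39 had a ratio of 0.936, with 587 CPM in sg5 replicate 1 and 526 to 530 CPM in the others. RPS2 had 0.878, with 1807 CPM in sg5 replicate 2 and 2056 to 2094 CPM in the others. RPS15 had 0.857, with 433 CPM in sg1 replicate 1 and 375 to 383 CPM in the others. Chance flags about 1 in 20 such groups.

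RPS28 lay above LacZ in both sg1 libraries and below it in both sg5 libraries, with group means 0.10 apart on the log2 scale. The contrast of sg1 with sg5 was not called for it (edgeR adjusted p = 1.0).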

How the results depend on the processing

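No member was called in 82 of 83 alternative counts, DESeq2, other scalings and an FDR of 0.05 included. The exception was 3 genes in sg5 against LacZ without both libraries that stood apart. All 65 alternative medians of the members were above 0. For sg1, where the median was 0.08, it was 0.03 on both log2(TPM + 1) and log2(TPM + 0.1), where the medians of all genes were -0.03 and -0.04. Leaving out 1 library at a time gave 0.03 to 0.12 for the members in sg1. The numbers of genes with all libraries above LacZ, examined after seeing the data, were 65 in sg1, 76 in sg5 and 63 in both joined without the libraries that stood apart, which leaves fewer values to exceed (35.1%, 36.7% and 19.7% of all genes were above). They were 11, 12 and 4 with total counts (12.6%, 16.1% and 6.81% of all genes), and 13, 13 and 6 with TPM (12.9%, 14.9% and 6.49%). The subunit ratio in sg5 minus LacZ was -0.0317 with protein-coding transcripts only, -0.0134 with pseudogenes added and -0.0405 with counts, and in sg1 -0.0186 with counts, where the cause was not tested. The named genes had 93 changes of sign in 1494 alternative values, all uncalled. Replicate numbers did not pair the samples (correlations of deviations 0.072, 0.012 and -0.206 over all genes, and -0.487, 0.539 and -0.65 over the members), and with a replicate block 0 members were called and the medians were 0.08 in sg1, 0.14 in sg5 and 0.11 joined. The block changed no other call. Counts of 15 to 21 limit RPL3L, and 2 libraries a group limit every member.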
